A study of Mus musculus with 3 samples.

Results

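The 10 genes described here encode regulators that tie growth through mTORC1 to energy, oxygen and amino acid supply: Ddit4, Ddit4l, Sesn1, Sesn2, Sesn3, Tsc1, Tsc2, Rheb, Eif4ebp1 and Prkaa1. They were listed by name, out of 21779 nuclear protein-coding genes of the RefSeq table for GRCm38.p6 (mm10). The rule uses no measured value, although the list was drawn up with earlier results of these data known. All peaks whose centre lay inside one of these genes, or within 50 kb of either gene end, were collected from the merged list of HIF1α peaks. HIF1α, the subunit of the hypoxia-inducible factor whose stability depends on oxygen, was immunoprecipitated from cross-linked chromatin of wild-type Black-Swiss mouse hearts at stage E12.5. The study made 3 libraries, namely 2 replicate pulldowns with the anti-HIF1α antibody and 1 input without antibody, all of the same genotype and stage. The question the design sets is which loci carry HIF1α in the fetal heart.

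The list holds 17289 peaks, each with a whole-number score from the authors, and 1989 of them (11.5%) were merged from 2 calls. The read depth is unknown from this list, the pulldown behind a single call is not marked, so the values below come with neither a replicate error nor a test between samples. The lowest score is 2, which is also the median of peaks of 1 call, and the median of peaks of 2 calls is 4. A peak list does not measure expression, so the labelled tissue was not checked against its markers here.

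mTORC1 is a kinase complex that promotes protein synthesis and cell growth when it is bound by RHEB in its GTP form at the lysosome. The TSC complex, built on TSC1 and TSC2, makes RHEB hydrolyse its GTP and so holds mTORC1 back. Stress reaches this switch through DDIT4 (also called REDD1), a protein known to be induced by low oxygen, through the sestrins, which answer to leucine, oxidants and p53, and through AMPK, the kinase that senses a fall in cellular energy. A growing fetal heart works at low oxygen, and of these proteins DDIT4 is the textbook link between oxygen and growth.

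The sequences below set the member promoters with a peak beside others without one, and they come from the RefSeq promoter table for GRCm38.p6. Each is written 5′ to 3′ on the strand of its gene, and capitals mark the HIF core letters, ACGTG or GCGTG, on either strand (CACGT and CACGC are their reverse complements, and CACGTG holds ACGTG on both strands). The 250 bases before the Ddit4 start site, chr10:59951771-59952020 on the minus strand, are shown because a peak of 2 calls lies in them.
Ddit4: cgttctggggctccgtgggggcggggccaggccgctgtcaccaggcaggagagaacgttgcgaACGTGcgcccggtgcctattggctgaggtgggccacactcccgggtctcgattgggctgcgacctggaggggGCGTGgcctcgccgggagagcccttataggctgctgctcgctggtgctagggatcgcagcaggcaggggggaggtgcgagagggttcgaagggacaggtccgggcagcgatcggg
The peak at Tsc1, chr2:28641142-28641242 on the plus strand, is shown because it lies in the other member promoter window with a peak. Eif4ebp1 has no window in the promoter table, so its promoter was not read.
Tsc1: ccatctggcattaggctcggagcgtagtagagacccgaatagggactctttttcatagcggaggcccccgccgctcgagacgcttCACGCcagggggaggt
The 250 bases before the start site of Ddit4l, chr3:137623422-137623671 on the plus strand, are shown as those of the paralogue of Ddit4 without a peak.
Ddit4l: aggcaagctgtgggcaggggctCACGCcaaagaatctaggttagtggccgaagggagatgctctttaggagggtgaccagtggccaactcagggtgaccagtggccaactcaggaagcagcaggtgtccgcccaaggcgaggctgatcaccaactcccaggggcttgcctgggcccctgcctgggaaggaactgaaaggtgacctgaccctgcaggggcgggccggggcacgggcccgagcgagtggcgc
The 250 bases before the start site of Rheb, chr5:24842362-24842611 on the minus strand, are shown because they hold ACGTG although no peak lies there.
Rheb: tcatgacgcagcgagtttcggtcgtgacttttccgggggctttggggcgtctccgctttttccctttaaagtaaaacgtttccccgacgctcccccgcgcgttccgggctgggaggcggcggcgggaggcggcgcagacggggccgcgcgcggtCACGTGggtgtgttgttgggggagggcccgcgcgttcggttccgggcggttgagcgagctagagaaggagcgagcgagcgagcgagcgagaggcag

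Each of the 10 genes had 0, 1 or 2 peaks within 50 kb. At least 1 peak was found at 7 of the 10, against 64.8% of all protein-coding genes, so this count was near the background. The 7 genes held 10 peaks between them, and the median gene had 1 peak, as did the median protein-coding gene. The mean was 1.0 peak in the set and 1.27 over all protein-coding genes. The median gene length was 37.5 kb in the set and 17.2 kb over all protein-coding genes, so the median window was longer in the set. Of the 10 peaks, 3 were of 2 calls. They lay at Ddit4, which had 2 of them, and at Eif4ebp1, so 2 of the 10 genes had a peak of 2 calls within 50 kb, against 21.4% of all protein-coding genes. Ddit4l, Sesn1 and Sesn2 had no peak in the window.

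**Figure D1:**
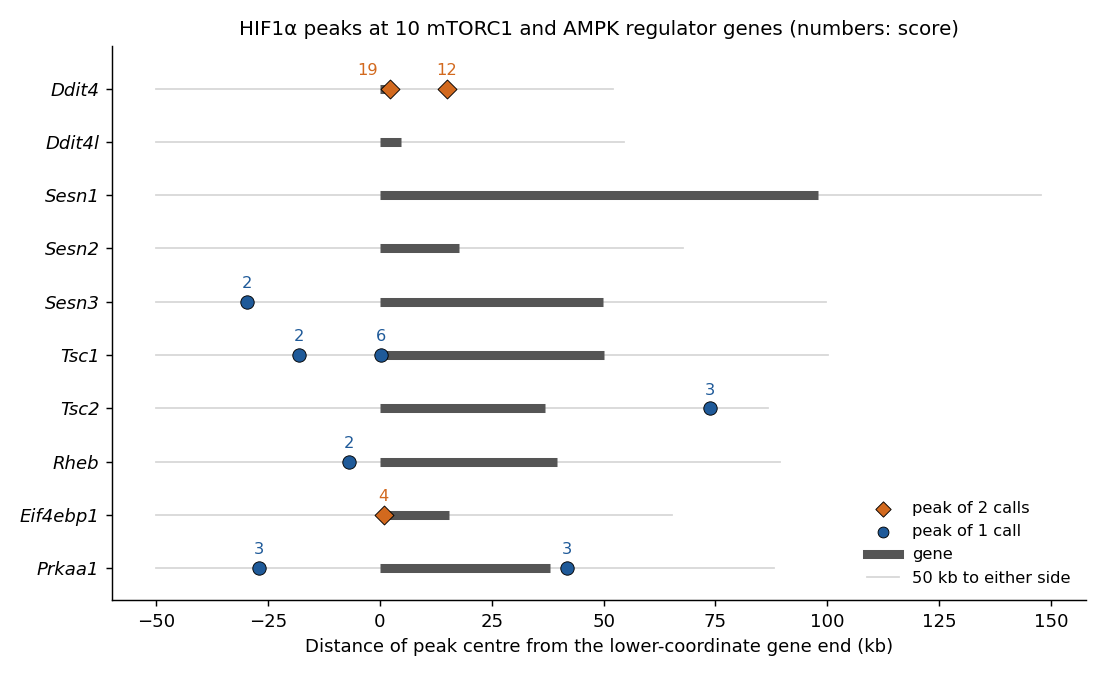
Positions of the 10 peaks (markers, with the score above each) along the 10 genes; the x axis gives the distance of the peak centre from the lower-coordinate end of the gene in kb, and the thin line marks 50 kb to either side. Both peaks of Ddit4 and the peak of Eif4ebp1 are of 2 calls (diamonds), and the other 7 peaks are of 1 call (circles).

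The share of genes with a peak near an end was higher in the set than over all genes, on small numbers. At 4 of 10 genes an end lay within 5 kb of a peak centre (40.0%, exact 95% Clopper-Pearson interval 12.2 to 73.8%), against 24.0% of all protein-coding genes. These were Ddit4, Tsc1, Eif4ebp1 and Prkaa1. With peaks of 2 calls alone, 2 of 10 (20.0%, interval 2.52 to 55.6%) were near, against 7.72%. Within 1 kb the count was 3 of 10, against 16.2%. Both of these intervals hold the background share, so a difference from other genes was not detectable with 10 genes. The nearest peak of any kind lay at a median of 18.3 kb from the gene end for the 10 genes and 28.3 kb for all protein-coding genes. For peaks of 2 calls the medians were 190 kb and 270 kb. The genes closest to the 5 kb limit were Prkaa1, inside it at 3.82 kb, and Rheb, outside it at 6.87 kb. At the 50 kb limit they were Tsc2, inside at 37.0 kb, and Ddit4l, outside at 67.8 kb.

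**Figure D2:**
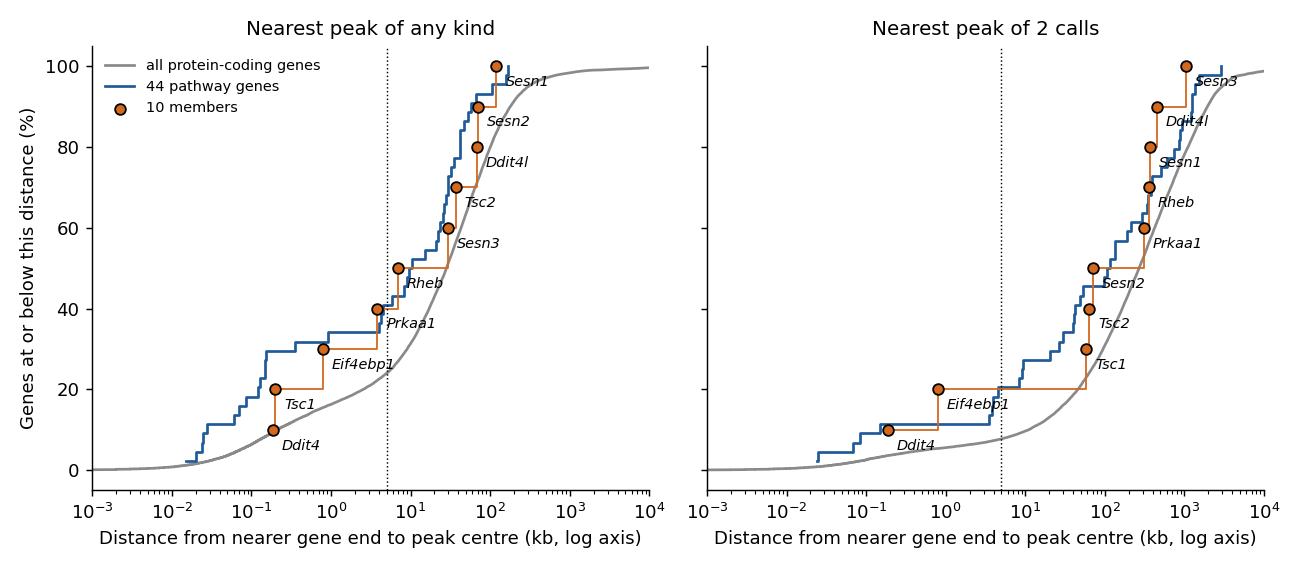
Share of genes (y axis, %) whose nearer end lies within a given distance of a peak centre (x axis, kb, log scale), for any peak on the left and peaks of 2 calls on the right; the dotted line marks 5 kb. Orange points are the 10 genes, the blue line 44 other pathway genes and the grey line all protein-coding genes. On the right, Ddit4 and Eif4ebp1 stand below 5 kb, and the next gene, Tsc1, is at 58.0 kb.

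Ddit4, the DDIT4 gene that restrains mTORC1 through the TSC complex, carried the highest scores of the set. It is a short gene of 2096 bp on the minus strand (chromosome 10, 59949675 to 59951770). Its first peak, chr10:59951899-59952013, scored 19 and came from 2 calls, and its centre lay 186 bp upstream of the start site. Of all peaks of 2 calls, 61 (3.07%) scored at least as high, and of the whole list 66 peaks (0.382%) did. The peak runs from 243 to 129 bases before the start site, and so lies wholly within the sequence printed for Ddit4 above. ACGTG occurs once in that sequence, 187 bases before the start site, and the middle base of the core is 1 bp from the centre of the peak. Of the 210 peaks of 2 calls wholly in a promoter window and with ACGTG, 34.3% held it within 10 bp of the centre. Of the 144 such peaks of 1 call, 31.2% did, so this placement was about as frequent among them. A GCGTG core, 115 bases before the start site, lies just outside the peak, between it and the gene.

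The second Ddit4 peak, chr10:59964629-59964738, scored 12 and was also of 2 calls. Its centre lay 12.9 kb upstream of the gene and 12727 bp from the centre of the first. It was outside any annotated gene, and the next nearest gene end, that of Anapc16, a subunit gene of the anaphase-promoting complex, was 22.7 kb away. Among peaks of 2 calls, 147 (7.39%) scored at least 12. At least 2 peaks of 2 calls lay within 50 kb of 1 of the 10 genes, Ddit4, against 4.19% of all protein-coding genes. A pair that both score 10 or more within 50 kb was found at 25 protein-coding genes (0.115%), and Ddit4 was the 1 gene of the set among them. That limit of 10 was chosen after the values of Ddit4 were seen, so this share is a description. The first Ddit4 peak lay in the 50 kb windows of 2 protein-coding genes and the second in those of 3. The windows alone therefore do not assign the pair to Ddit4, although Ddit4 was the nearest protein-coding gene to each peak.

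Among the 1682 protein-coding genes with a peak of 2 calls within 5 kb, ranked by the highest score of such a peak, Ddit4 was 48th. The order around it was read as a measure of likeness in score alone. Gbe1, the glycogen branching enzyme gene, scored 20, and Egln1, which encodes a HIF prolyl hydroxylase, scored 19 at 47 bp. After Ddit4 came Plod2, a collagen lysyl hydroxylase gene, with a score of 19 at 2468 bp, and Rps3a1, a ribosomal protein gene, with a score of 18 at 2 bp. Egln1, Ddit4 and Plod2 share 1 score, and their order follows only the distance to the gene end.

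Its paralogue Ddit4l (REDD2), which likewise restrains mTORC1, had no peak within 50 kb (chromosome 3, 137623672 to 137628332). The nearest peak lay 67.8 kb away with a score of 2 from 1 call, and was 555 bp from the gene Gm4861. The nearest peak of 2 calls was 452 kb away. Both promoters hold GCGTG, but ACGTG is found in the Ddit4 window and not in that of Ddit4l. The window of Ddit4l, 250 bases before to 50 bases after the start site, holds GCGTG 2 times. One of these lies in the printed stretch, on the opposite strand.

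**Figure D3:**
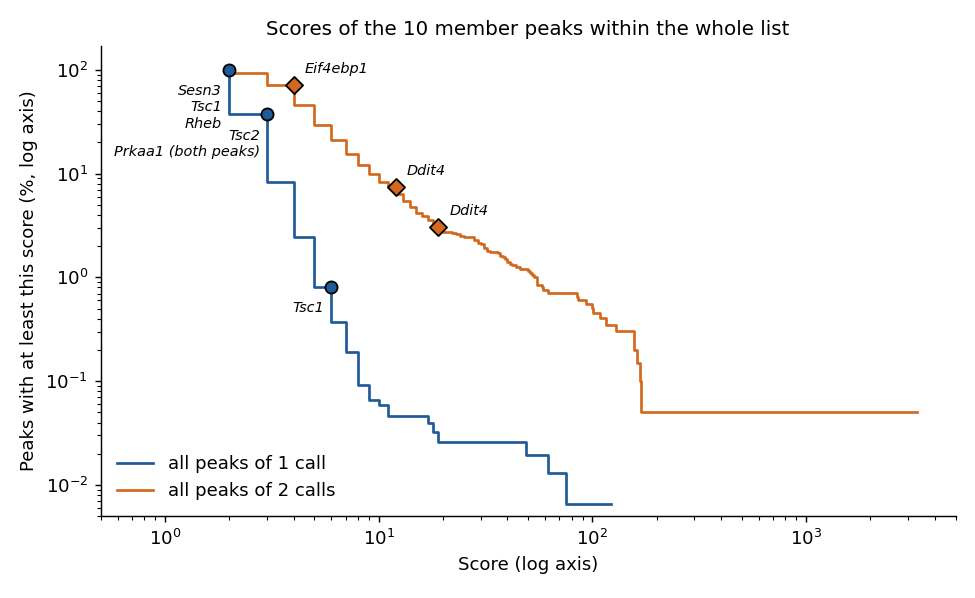
Share of peaks (y axis, %, log scale) with at least the score on the x axis (log scale), separately for peaks of 1 call (blue line) and of 2 calls (orange line), with the 10 peaks of the set marked by gene. The Ddit4 peaks, at 19 and 12, and the Tsc1 peak, at 6 among peaks of 1 call, lie in the upper tails, and the others lie at scores of 2 to 4.

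The sestrin genes, whose products inhibit mTORC1 when leucine is short or oxidants rise, had 1 peak between them, and that of the lowest score. Sesn1 (chromosome 10, 41810574 to 41908436) spans 97.9 kb and held none, inside or within 50 kb. Its nearest peak, of score 3 from 1 call, was 120 kb away. Sesn2 (chromosome 4, 132492804 to 132510456) had its nearest peak at 70.8 kb, a 2-call peak that scored 7 and lay 403 bp from an end of Phactr4. Sesn3 (chromosome 9, 14276301 to 14326134) had 1 peak, chr9:14246535-14246635, 29.7 kb upstream, of 1 call and with the lowest score of 2. Its nearest peak of 2 calls was 1030 kb away. Among the promoter windows of the sestrins, 1 of the 2 of Sesn1 held GCGTG, and those of Sesn2 and Sesn3 held neither core.

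The genes of the RHEB switch differed in their peaks. Tsc1, which encodes hamartin, the scaffold of the TSC complex, had a peak of score 6 at its promoter, the one printed above. It came from 1 call, and its centre lay 199 bp inside the gene and 41 bp upstream of the start site in the promoter table, which is 240 bp inside the outermost annotated end. Among peaks of 1 call, 125 (0.817%) scored 6 or more, and in the whole list 706 peaks (4.08%) did. A peak of 1 call with such a score within 5 kb was found at 103 protein-coding genes (0.473%), a limit set after the Tsc1 score was seen. It was also found at 2 of the 44 other pathway genes described below. The printed peak holds a GCGTG core on the opposite strand, 37 bp from its centre, and no ACGTG. A further peak of Tsc1, chr2:28622778-28622878, scored 2 from 1 call at 18.2 kb upstream and was 846 bp from an end of Gfi1b, a blood transcription factor gene. The nearest peak of 2 calls was 58.0 kb from Tsc1.

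Tsc2 encodes tuberin, the subunit that acts on RHEB (chromosome 17, 24595816 to 24632676). Its 1 peak, chr17:24669597-24669697, scored 3 from 1 call and lay 37.0 kb upstream, but only 40 bp from an end of Zfp598. The 50 kb windows of 11 protein-coding genes held this peak, so the window alone does not assign it to Tsc2. The Tsc2 promoter window holds GCGTG once and no peak. Rheb (chromosome 5, 24802823 to 24842361), the GTPase gene itself, had a peak of score 2 from 1 call, chr5:24795906-24796006, 6.87 kb beyond its 3′ end. The printed Rheb promoter holds the palindrome CACGTG, 96 bases before the start site, and no peak centre. The nearest peak of 2 calls to Rheb was 358 kb away.

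Eif4ebp1 encodes 4E-BP1, the mTORC1 substrate that binds the cap-binding protein eIF4E and blocks translation until it is phosphorylated (chromosome 8, 27260327 to 27275656). It had 1 peak, chr8:27261071-27261174, of 2 calls, inside the gene and 795 bp from its lower-coordinate end. The score of 4 equals the median of peaks of 2 calls, and 1409 of these (70.8%) scored at least 4. It ranked 1172nd of the 1682 genes with such a peak within 5 kb, where 468 genes share the score of 4. Beside Ddit4 it was the other gene of the set near a peak of 2 calls, with a score below both Ddit4 peaks.

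Prkaa1 encodes a catalytic subunit of AMPK (chromosome 15, 5143861 to 5181899). Both of its peaks were of 1 call with a score of 3, and both sat at other genes. The first, chr15:5116703-5116803, lay 27.1 kb upstream of Prkaa1 and inside Rpl37, 140 bp from an end of that ribosomal protein gene. The second, chr15:5185666-5185766, lay 3.82 kb beyond the 3′ end of Prkaa1 and inside Ttc33, 226 bp from its end. The count of Prkaa1 among the genes near a peak therefore rests on a peak closer to its neighbour. When each peak was given only to its nearest protein-coding gene, 3 of the 10 genes were near a peak within 5 kb, against 19.1% of all protein-coding genes.

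Promoter sequence was found for 9 of the 10 genes, in 10 windows with 57.3 to 82.0% GC. Either core was found in 6 of the 10 windows, against 43.8% of all 32851 windows of the table. Of the 10 windows, 9 had at least 60% GC, and in windows of that GC without a peak centre the share was 67.2%, so 6 of 10 was not above its like. ACGTG was found in the windows of Ddit4 and Rheb alone among the 9 genes, against 19.6% of all windows. GCGTG was found in the windows of Ddit4, Ddit4l, Tsc1 and Tsc2 and in 1 of Sesn1, against 32.4% of all windows. Of the 6 windows with a core, those of Ddit4 and Tsc1 held a peak centre and 4 did not. The core letters were thus also present at promoters of the set without a peak. The same held over all windows, where 12846 of the 14380 with either core held no peak centre. Among the 450 peaks of 2 calls that lie wholly in a promoter window, 46.7% held ACGTG, as at Ddit4. Among the 50 of them that scored at least 10, a limit chosen after the Ddit4 scores were seen, 74.0% held it. Of the 821 such peaks of 1 call, 17.5% held ACGTG and 29.4% held GCGTG, as at Tsc1. By comparison, 8.32% of the central 115 bases of all windows, the width of the Ddit4 peak, held ACGTG, and 13.9% of the central 101 bases, the width of the Tsc1 peak, held GCGTG. These central stretches were not matched to the peaks in GC. They were also not matched in width to the peaks of 2 calls, which ran from 101 to 201 bp. GC content moved with the peaks: the median was 63.0% in windows with a peak of 2 calls and 52.0% in windows without a peak centre. In windows of at least 60% GC, ACGTG was in 61.4% of those with a peak of 2 calls, 32.3% of those with peaks of 1 call alone and 23.8% of those without a peak centre. For GCGTG the shares in such windows were 71.9%, 66.5% and 57.7%, closer together than for ACGTG.

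The other genes of the pathway were read from a list of 44, of which all 44 matched the gene table. For 18 of them a gene end lay within 5 kb of a peak centre (40.9%, exact interval 26.3 to 56.8%) against 24.0% of all protein-coding genes, beside 40.0% of the 10 regulators. With peaks of 2 calls the count was 9 of 44 (20.5%, interval 9.80 to 35.3%) against 7.72%. The scores of these peaks of 2 calls were 3 to 7, all below both Ddit4 peaks. When each peak of any kind was given only to its nearest protein-coding gene, 14 of the 44 were near within 5 kb. The same share of all protein-coding genes was 19.1%. The counts by role below do not apply this limit.

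**Figure D4:**
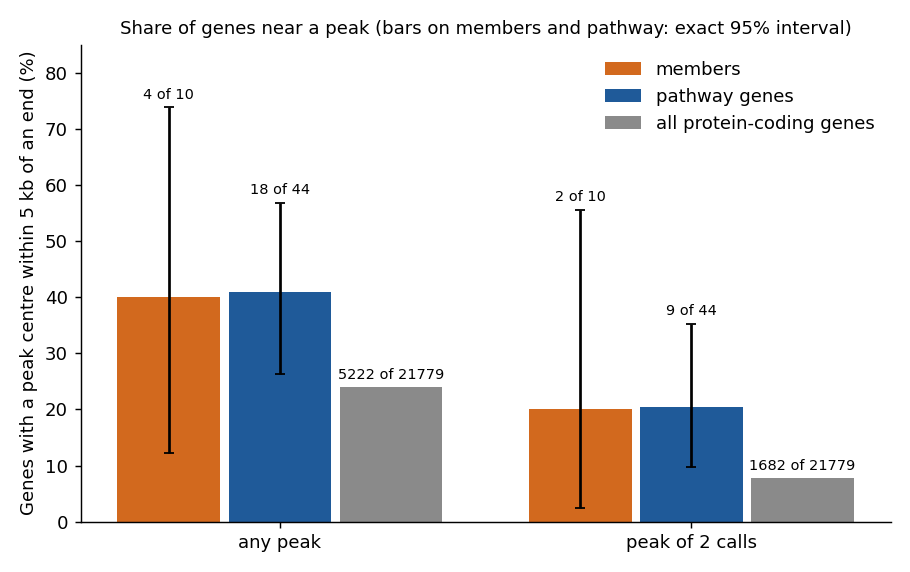
Share of genes (y axis, %) with a peak centre within 5 kb of either end, for any peak and for peaks of 2 calls, in the 10 genes (orange), 44 other pathway genes (blue) and all protein-coding genes (grey). Black bars are exact 95% Clopper-Pearson intervals over genes; both intervals of the 10 genes hold the grey share.

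The counts by role are over few genes and stand beside 24.0% of all protein-coding genes near a peak. Among the subunits of mTORC1 itself, 4 of 5 genes were near a peak. Akt1s1, whose product PRAS40 inhibits the complex, had 2 peaks of 2 calls, the first scoring 6 at 24 bp and the second scoring 7 at 738 bp. Mlst8, a core subunit gene, carried a 2-call peak that scored 5 at 3.55 kb, which was 430 bp from Pgp. Upstream of RHEB, Tbc1d7, the third TSC complex subunit gene, carried a 2-call peak that scored 3 at 148 bp. Of the 11 genes for the Rag GTPases, their lysosomal scaffold and the folliculin complex, 6 were near a peak. In 1 case this was a peak of 1 call at 4.27 kb, nearer to Rapgef6 (299 bp). Lamtor1, which anchors that scaffold, was the 1 of the 11 genes with a 2-call peak, which scored 6 at 69 bp. Of the 8 amino acid sensing and GATOR genes 3 were near a peak, and Wdr24 had one of 2 calls that scored 4 at 4.57 kb, nearer to Stub1 (379 bp).

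On the AMPK side, the upstream kinase gene Stk11 (LKB1) carried a 2-call peak that scored 4 at 25 bp. Prkab2, a regulatory subunit gene, had one that scored 3 at 85 bp, and it was the 1 of 5 other AMPK subunit genes near a peak within 5 kb. Prkaa2, which encodes the other catalytic subunit, is named after its values were seen. It holds a 2-call peak that scored 8 inside the gene, chr4:105101522-105101646, 8.31 kb from its nearer end. Prkaa1 had no peak of 2 calls within 50 kb, and its nearest one was 308 kb away. Of the 4 downstream targets listed (Acaca, Acacb, Ulk1 and Tfeb), 0 were near a peak within 5 kb. Over all protein-coding genes the share was 24.0%, and groups of 4 or 5 genes are too small to compare with it.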

How the data were processed

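Reads were handled with Bowtie2 and HOMER on mm10, per the submitters' processing notes (versions are not stated). The deposited file holds 1 peak list merged by the authors from calls of each of the 2 pulldowns against the 1 input, per the file headers. Its score is a whole number whose scale the authors' header does not define, and it was used only to describe and rank these peaks. How calls were thresholded and merged is not given in the sources used here. The last number of a peak name was read as its number of merged calls. The labels do not say whether the pulldowns came from separate pools of hearts.

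Genes came from the RefSeq table of GRCm38.p6, without mitochondrial genes and, except on chromosome Y, genes placed below 3 Mb (unplaced sequence). Distances were measured from the peak centre to the nearer gene end. Start sites, strands and sequence came from the RefSeq promoter table (250 bases before to 50 after each start). Peaks outside these windows were not read for sequence. Counts are set beside the same count over all protein-coding genes, with exact 95% Clopper-Pearson intervals over genes, which are not replicates and share peaks with their neighbours. No set test was run. Named were the 10 genes, pathway genes with a peak of 2 calls within 5 kb (8 with the highest scores, of which 1 is not reported here) and the neighbours of the first gene in rank. The members, lists and windows were chosen with earlier results of these data known. The sequence searches and the grouping of pathway genes by role were added after the file was seen. The assignment of peaks to genes was tested on simulated peaks. Python 3.11.15, pandas 2.3.3 and SciPy 1.17.1 were used.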

Additional observations from a re-analysis of the deposited data

How the results depend on the processing

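Of the 10 genes, those with a peak within 5 kb numbered 3 to 5 under 7 other settings (score minimum of 3 or 4, windows of 1 or 10 kb, peaks inside genes, any overlap, nearest gene), while the share of all protein-coding genes ranged from 10.6% (score of at least 4, 3 of 10) to 32.7% (peaks inside genes, 4 of 10). The count with a peak of 2 calls was 2 under 5 settings. Over all protein-coding genes the share with such a peak, 7.72% as reported, was 5.54% within 1 kb, 9.66% within 10 kb and 5.65% by nearest gene. Of the 7 genes with a peak within 50 kb, 3 were left at a score of at least 4 (26.5% of all protein-coding genes) and 2 with peaks of 2 calls (21.4%). Their 10 peaks fell to 4 and 3 under these settings, to 5 within 10 kb and to 6 when given only to the nearest protein-coding gene. For the pathway list, the 18 genes became 9 at a score of at least 4, where the share of all protein-coding genes also fell, from 24.0% to 10.6%. The 9 genes with a peak of 2 calls became 5 within 1 kb and 5 by nearest gene, where all genes fell from 7.72% to 5.54% and 5.65%. Leaving out a pulldown was not run, because the list does not mark which pulldown a call came from. No paired analysis was possible because the list pools both pulldowns. Without depth, a gene lacking a peak cannot be told from one below the authors' threshold.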

Other observations

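Outside the 50 kb windows, the peaks of 2 calls nearest to the genes without one lay within 1 kb of an end of another gene in 6 of 8 cases, as did 51.9% of all nuclear peaks of 2 calls for any coding gene. For Sesn1 it was a peak of score 8, 102 bp from Foxo3, the gene of a transcription factor that responds to stress, at 368 kb. For Sesn3 it was a peak of score 7, 49 bp from Cep295. For Rheb it was a peak of score 9, 27 bp from Fastk. For Tsc2 it was a peak of score 3, 6 bp from Gfer, at 63.5 kb. For Ddit4l and Prkaa1 the nearest such peaks, of score 3 and 2, were far from any protein-coding gene, 169045 bp from Emcn and 246078 bp from Ptger4.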
